A study of Mus musculus with 12 samples.

Results

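The genes described here encode calcium buffers and neuronal calcium sensors: the buffer calbindin (Calb1), the NECAB proteins (Necab1, Necab2, Necab3), and neuronal calcium sensors of the Ncs1, hippocalcin and visinin-like group (Ncs1, Hpca, Hpcal1, Hpcal4, Vsnl1, Ncald). A gene was taken where the platform annotation gave an array feature exactly 1 gene symbol and that symbol was on the list of 10. The list was measured for 9 genes, each with 1 feature, out of 30142 genes in all. The feature of Ncald, which encodes neurocalcin delta, carries a second symbol, Gm15941, so Ncald was not analysed here. Calb1 rose and Necab2 fell in the dendritic layer of CA2, and each went the opposite way in CA1. Necab1, Ncs1 and Hpcal4 rose, and Hpca and Vsnl1 fell, in the dendritic layer of both regions.

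RNA came from 4 laser-captured pieces of the hippocampus, with 3 arrays each: the dendritic layer of CA2, the cell body layer of CA2, the dendritic layer of CA1 and the cell body layer of CA1. CA2 and CA1 are neighbouring fields of excitatory pyramidal neurons; the cell body layer (stratum pyramidale) holds their somata, and the dendritic layer (stratum radiatum) holds their apical dendrites together with axons, interneurons, glia and vessels. All groups came from 3 male mice, 6 to 8 weeks old, killed under deep anaesthesia with no other treatment stated, and of the strain labelled Amigo2-GFP C57BL/6J, which carries a fluorescent reporter named for the CA2 gene Amigo2, so every group carries the reporter. Values are log2 expression as the authors normalized it, a difference of 1 is a 2-fold difference, and values with an error are means ± SD of 3 arrays; array signals have no read depth, so the number of arrays limits the precision. Levels of different genes cannot be compared, because each comes from its own probes.

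Calcium entering a neuron through receptors and channels is bound within moments by proteins with EF-hand motifs, helix-loop-helix folds whose loop holds the ion. Buffers such as calbindin mainly take calcium up and limit how far a signal spreads, whereas sensors such as Ncs1 and hippocalcin change shape on binding, many of them exposing a fatty acid that brings them to membranes, and then act on channels, receptors or lipid kinases. In the rodent hippocampus, calbindin is known from dentate granule cells, from a part of the CA1 pyramidal cells and from some interneurons. Hippocalcin is named for its abundance in hippocampal pyramidal cells, and Necab2 is known as a marker of CA2.

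The sequences just upstream of the transcription start are shown for 3 genes with different layer patterns: Hpcal4, higher in the dendritic layer of both regions; Vsnl1, lower in it in both; and Necab2, lower in it in CA2 and higher in CA1. The pattern of Calb1, the reverse of that of Necab2, and those of Necab3 and Hpcal1 are not represented. RefSeq promoter windows (build GRCm38.p6) were matched for 7 of the 10 genes, and these 3 have a window that lies wholly upstream of the annotated gene. Each sequence is the 250 bases before the start, written 5′ to 3′ on the strand of the gene, with the GC box (GGGCGG, on either strand) in capitals. They lie at chr4:123183254-123183503 on the plus strand (Hpcal4), chr12:11436579-11436828 on the minus strand (Vsnl1) and chr8:119446469-119446718 on the plus strand (Necab2).
Hpcal4: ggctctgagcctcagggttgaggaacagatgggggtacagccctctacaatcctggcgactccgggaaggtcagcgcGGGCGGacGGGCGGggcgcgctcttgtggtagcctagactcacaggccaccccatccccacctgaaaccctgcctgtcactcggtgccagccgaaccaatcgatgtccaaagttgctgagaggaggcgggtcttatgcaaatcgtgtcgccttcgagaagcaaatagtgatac
Vsnl1: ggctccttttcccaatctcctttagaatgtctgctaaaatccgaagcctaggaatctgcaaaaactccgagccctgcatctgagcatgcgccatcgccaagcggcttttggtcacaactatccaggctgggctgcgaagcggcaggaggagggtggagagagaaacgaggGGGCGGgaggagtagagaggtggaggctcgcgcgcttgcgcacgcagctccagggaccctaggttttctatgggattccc
Necab2: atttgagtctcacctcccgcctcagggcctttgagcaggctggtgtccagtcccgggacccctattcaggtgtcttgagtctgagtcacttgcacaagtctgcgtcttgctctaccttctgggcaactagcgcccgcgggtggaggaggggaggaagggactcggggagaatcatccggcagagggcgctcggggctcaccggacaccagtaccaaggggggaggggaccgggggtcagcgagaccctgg

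The GC box occurred 2 times upstream of Hpcal4, 1 time upstream of Vsnl1 and 0 times upstream of Necab2, and 32.7% of all 32851 RefSeq windows of this length hold it. The general E-box (CANNTG, which reads as CANNTG on either strand) occurred 2 times for Hpcal4, 1 time for Vsnl1 and 2 times for Necab2, against a share of 66.2% of all windows. The TATA box (TATAAA, either strand; 12.4% of windows) and the cAMP response element (TGACGTCA; 1.55%) were in none of these 3 windows. The windows hold 16, 14 and 13 CG dinucleotides in that order of genes, against a median of 6 over all windows. These matches describe letters in the windows only.

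The labels were checked against marker genes. Gfap, the intermediate filament of astrocytes, was higher in the dendritic layer by 3.24 in CA2 and 3.28 in CA1, and Neurod6, a transcription factor of pyramidal neurons, was lower in it by -3.18 and -2.57. Amigo2, which marks CA2, was higher in the CA2 than in the CA1 cell body layer by 2.83, and Wfs1, which marks CA1, was lower there by -2.72. The CA1 gene Pou3f1 did not separate the regions (-0.26 in the cell body layer). Pcp4, another CA2 marker, was 3.79 higher in the CA2 than in the CA1 cell body layer. Its dendritic minus cell body difference was -0.75 in CA2 but 2.21 in CA1, so it did not follow 1 order of layers. Hybridization controls, added in equal amounts before hybridization, read 12.38 to 12.64 on CA2 dendrite against 12.09 to 12.16 on CA2 cell body arrays, and 13.03 to 13.11 on CA1 dendrite against 12.44 to 12.49 on CA1 cell body arrays. Poly-A controls, added before amplification, read 9.39 to 9.66 and 8.53 to 8.72 on the CA2 dendrite and cell body arrays, and 7.51 to 8.43 and 10.68 to 11.08 on the CA1 dendrite and cell body arrays. Transcripts typical of oocytes (18 of 19 listed genes measured) averaged 7.23 to 7.34 on 3 arrays, CA2 cell body 1 and CA2 dendrite 2 and 3, and 5.37 to 5.80 on the other 9. Results of CA2 for the calcium genes, and some of the lists, are also given without these 3 oocyte-RNA arrays. This leaves 2 CA2 cell body arrays and 1 CA2 dendrite array, whose spread is then assumed to equal that of the other groups. The labels give all CA2 arrays one run number and all CA1 arrays another, so a direct comparison of CA2 with CA1 cannot be told apart from a comparison of runs.

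The comparison of the layers within each region asked which of these RNAs are more abundant in the dendritic layer and which in the cell body layer. In CA2, 4 of the 9 genes were higher and 3 lower in the dendritic layer at an adjusted p under 0.05, and 2 did not pass. In CA1, 5 were higher and 3 lower, and 1 did not pass. The background is high: 35.2% of all 30142 genes passed in CA2 (16.7% higher, 18.6% lower) and 49.0% in CA1 (30.1% higher, 18.9% lower). All 9 genes had no overlap between the arrays of the layers in CA2, against 47.3% of all genes, and 8 of 9 had none in CA1, against 55.1%. The median difference of the 9 genes was 0.23 in CA2 and 0.77 in CA1, beside -0.03 and 0.12 over all genes. In a captured layer, fewer cells of a type and less RNA per cell cannot be told apart.

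**Figure D1:**
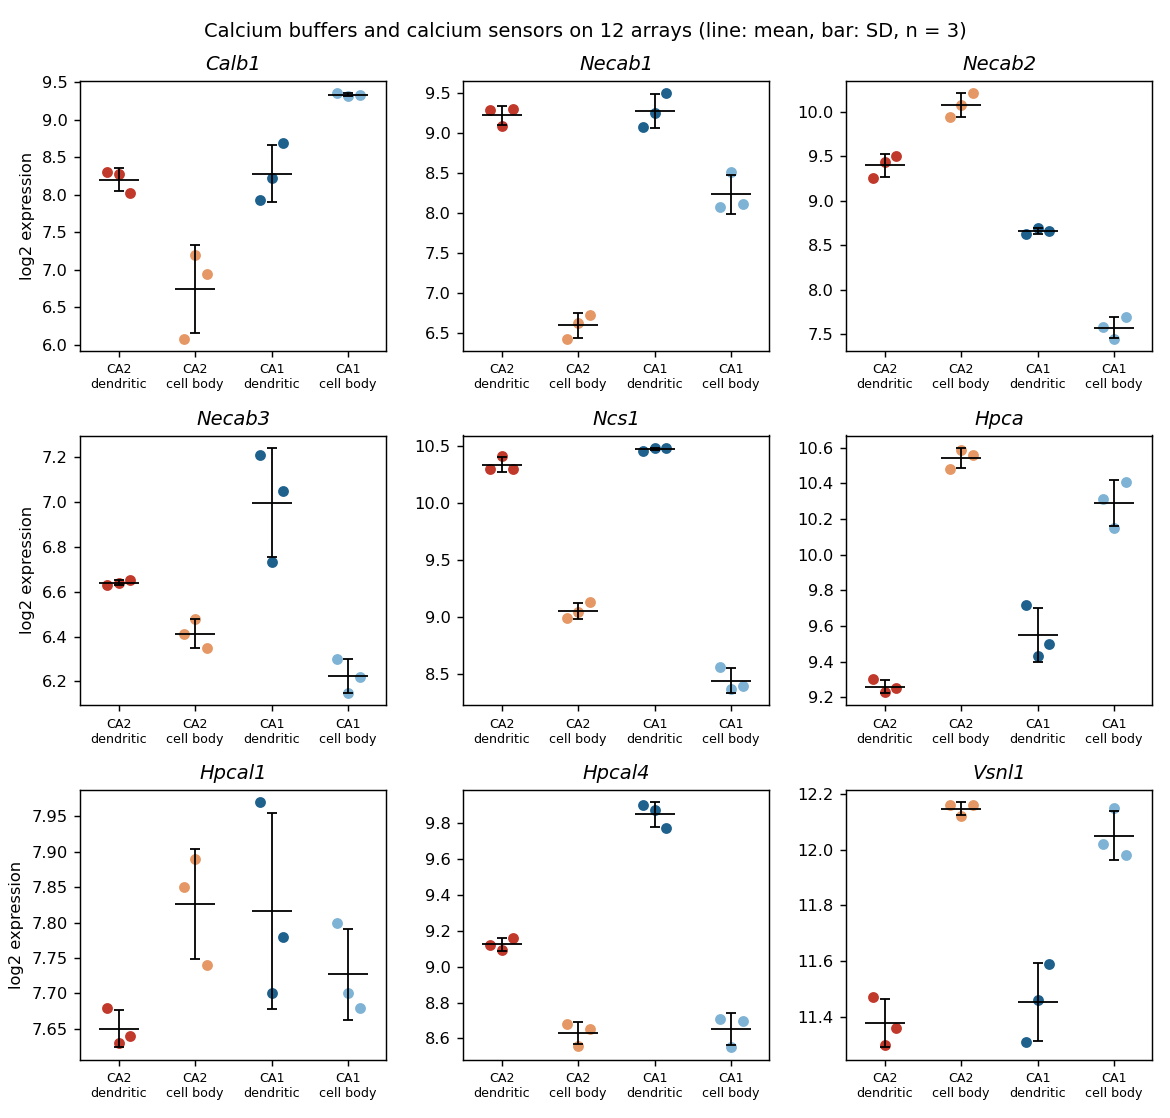
Each panel shows log2 expression (y axis, its own range per gene) of 1 gene on 12 arrays in 4 groups (x axis); points are arrays, the long line is the mean and the bar the SD (n = 3). Calb1 and Necab1 were lowest in the CA2 cell body layer (6.74 and 6.59), and Necab2 was highest there (10.08).

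Calb1, the buffer, had opposite layer patterns in the regions. It read 8.30, 8.27 and 8.02 on the CA2 dendrite arrays, against 6.08, 7.20 and 6.94 on the CA2 cell body arrays. It read 7.93, 8.22 and 8.69 on the CA1 dendrite arrays, against 9.35, 9.32 and 9.33 on the CA1 cell body arrays. All dendrite values lay above all cell body values in CA2 and below them in CA1. Calb1 rose by 1.46 (SE 0.24, adjusted p = 4.0e-04) in the CA2 dendritic layer and fell by 1.05 (SE 0.24, adjusted p = 0.00363) in the CA1 dendritic layer, relative to the cell bodies. The spread was uneven, with an SD of 0.59 in the CA2 cell body layer and 0.02 in the CA1 cell body layer. The lowest value, 6.08, is from CA2 cell body 1, one of the oocyte-RNA arrays; without these the CA2 difference was 1.23 (SE 0.25, adjusted p = 0.00606).

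Necab1, a NECAB protein known from interneurons, was higher in the dendritic layer of both regions. It read 9.29, 9.09 and 9.30 on the CA2 dendrite arrays, against 6.43, 6.62 and 6.73 on the CA2 cell body arrays. It read 9.08, 9.25 and 9.50 on the CA1 dendrite arrays, against 8.08, 8.51 and 8.11 on the CA1 cell body arrays. The dendritic layers had like levels, and the groups differed in how low the cell body layer was. Necab1 rose by 2.63 in CA2 (SE 0.13, adjusted p = 1.5e-08), a 6.2-fold difference that ranked 37 among all rises there, and by 1.04 in CA1 (SE 0.13, adjusted p = 4.0e-05). Without the 3 oocyte-RNA arrays the CA2 difference was 2.62 (SE 0.21).

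Necab2, known to bind the metabotropic glutamate receptor Grm5, turned round between the regions in the other sense from Calb1. It read 9.26, 9.44 and 9.51 on the CA2 dendrite arrays, against 9.94, 10.08 and 10.21 on the CA2 cell body arrays. It read 8.63, 8.69 and 8.66 on the CA1 dendrite arrays, against 7.58, 7.45 and 7.69 on the CA1 cell body arrays. The layers did not overlap in either region. Necab2 fell by 0.67 in the CA2 dendritic layer (SE 0.09, adjusted p = 5.9e-05) and rose by 1.09 in the CA1 dendritic layer (SE 0.09, adjusted p = 9.7e-07). Without the 3 oocyte-RNA arrays the CA2 difference was -0.88. This reversal was not particular to Necab2. The CA2 marker Pcp4 differed by -0.75 in CA2 and 2.21 in CA1, an interaction of -2.97. Of 10 measured CA2 neuron markers, 10 fell in the CA2 dendritic layer, and 4 rose and 3 fell in the CA1 dendritic layer. Necab3, which is known to bind the adaptor Apba2, read 6.63 to 6.65 on the CA2 dendrite and 6.35 to 6.48 on the CA2 cell body arrays, a difference of 0.23 that did not pass (95% interval 0.01 to 0.45, adjusted p = 0.109). It passed with array weights (adjusted p = 0.0415), in a fit of these groups alone (0.0161), and without CA1 dendrite array 1 (0.0487) or 2 (0.0174). In CA1 it read 7.21, 6.73 and 7.05 on the dendrite arrays and 6.30, 6.15 and 6.22 on the cell body arrays, a rise of 0.77 (SE 0.10, adjusted p = 4.6e-05).

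Ncs1, the neuronal calcium sensor that acts on a phosphatidylinositol kinase and on several channels, was higher in the dendritic layer of both regions. It read 10.30, 10.41 and 10.30 on the CA2 dendrite arrays, against 8.99, 9.04 and 9.13 on the CA2 cell body arrays. It read 10.46, 10.48 and 10.48 on the CA1 dendrite arrays, against 8.56, 8.36 and 8.39 on the CA1 cell body arrays. The gap between the layers was wider than 1 on the log2 scale in each region, with SDs of at most 0.11. Ncs1 rose by 1.28 in CA2 (SE 0.07, adjusted p = 2.4e-08) and by 2.04 in CA1 (SE 0.07, adjusted p = 6.9e-10), where it ranked 152 among all rises.

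Hpcal4, a visinin-like sensor, also rose in both dendritic layers. It read 9.12, 9.09 and 9.16 on the CA2 dendrite arrays, against 8.68, 8.56 and 8.65 on the CA2 cell body arrays. It read 9.90, 9.87 and 9.77 on the CA1 dendrite arrays, against 8.71, 8.55 and 8.70 on the CA1 cell body arrays. The cell body layers were alike and the CA1 dendritic layer was highest. The rise was 0.49 in CA2 (SE 0.07, adjusted p = 6.4e-05) and 1.19 in CA1 (SE 0.07, adjusted p = 3.5e-08).

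Hpca, hippocalcin, was lower in both dendritic layers. It read 9.30, 9.23 and 9.25 on the CA2 dendrite arrays, against 10.48, 10.59 and 10.56 on the CA2 cell body arrays. It read 9.72, 9.43 and 9.50 on the CA1 dendrite arrays, against 10.31, 10.15 and 10.41 on the CA1 cell body arrays. No dendrite value reached a cell body value. Hpca fell by 1.28 in CA2 (SE 0.09, adjusted p = 1.5e-07) and by 0.74 in CA1 (SE 0.09, adjusted p = 1.7e-05).

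Vsnl1, another visinin-like sensor, followed the same order of layers. It read 11.47, 11.30 and 11.36 on the CA2 dendrite arrays, against 12.16, 12.12 and 12.16 on the CA2 cell body arrays. It read 11.31, 11.46 and 11.59 on the CA1 dendrite arrays, against 12.02, 12.15 and 11.98 on the CA1 cell body arrays. Vsnl1 fell by 0.77 in CA2 (SE 0.08, adjusted p = 6.9e-06) and by 0.60 in CA1 (SE 0.08, adjusted p = 5.6e-05). Hpcal1, a close relative of hippocalcin, spanned only 7.63 to 7.97 over the 12 arrays and passed in neither region: the difference was -0.18 in CA2 (95% interval -0.34 to -0.01, adjusted p = 0.0956) and 0.09 in CA1 (95% interval -0.08 to 0.26, adjusted p = 0.336). In CA2 it passed with array weights (adjusted p = 0.0444) and without CA1 dendrite array 1 (0.0426). Without the 3 oocyte-RNA arrays the CA2 differences of Ncs1, Hpcal4, Hpca and Vsnl1 were 1.22, 0.52, -1.27 and -0.67. Those of Necab3 and Hpcal1 were 0.22 and -0.14.

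Cells other than pyramidal neurons differed between the layers too. Of 21 measured interneuron markers of 22 listed, 15 rose and 2 fell in the CA2 dendritic layer, and 14 rose and 4 fell in CA1. The mean level of the list was 8.71 to 8.79 on CA2 dendrite against 7.76 to 7.85 on CA2 cell body arrays, and 8.41 to 8.68 on CA1 dendrite against 7.72 to 7.82 on CA1 cell body arrays. Gad2, which makes GABA, rose by 1.91 in CA2 and 1.65 in CA1, and Gad1 by 1.57 and 1.05. Pvalb, also on the list, did not rise: it differed by -0.14 in CA2, which did not pass, and by -0.57 in CA1, which did. All 13 measured astrocyte markers of 14 listed rose in both regions (median difference 1.77 in CA2 and 1.86 in CA1). The markers of other non-neuronal cells rose as well: 9 of 9 endothelial markers in both regions (median difference 2.22 in CA2 and 2.14 in CA1), 10 of 10 of microglia (1.84 and 2.27), 9 of 9 of oligodendrocytes (1.10 and 1.07) and 5 of 5 of their precursors (0.81 and 1.01). Of 7 mural cell markers, 6 rose in CA2 and 7 in CA1 (median difference 1.69 and 1.74). Of 10 measured pyramidal neuron markers of 12 listed, 2 rose and 8 fell in CA2, and 2 rose and 6 fell in CA1. Array values have no true zero, so no marker could be read as absent, and the part of other cells in the layer differences of the calcium genes was not tested.

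**Figure D2:**
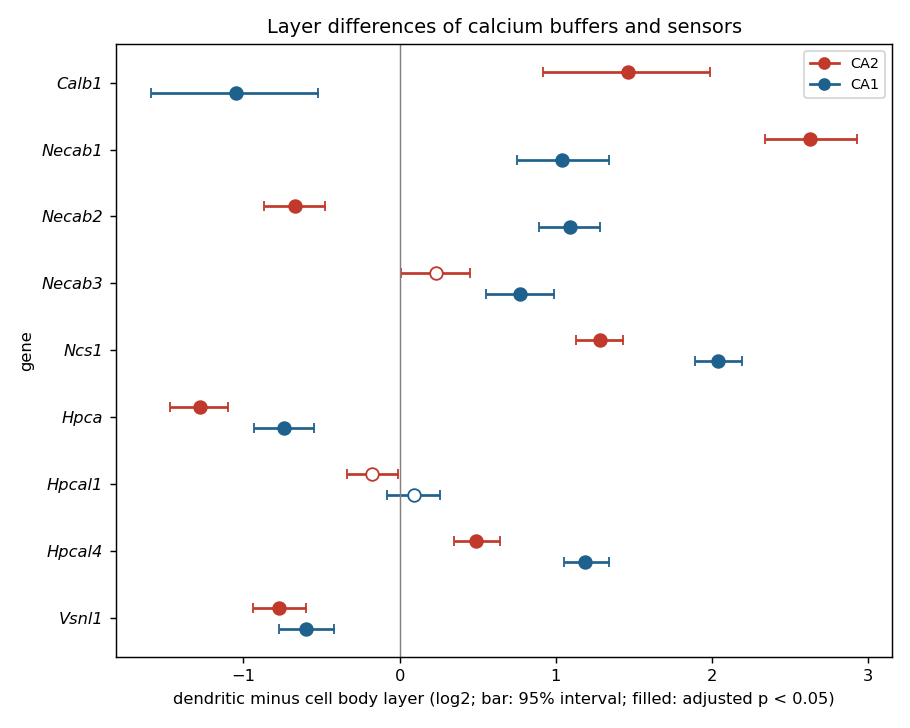
Dendritic minus cell body layer in log2 units (x axis) for each gene (y axis), CA2 above CA1; bars are 95% intervals and filled points passed an adjusted p of 0.05. Calb1 (1.46 in CA2, -1.05 in CA1) and Necab2 (-0.67 in CA2, 1.09 in CA1) lie on opposite sides of 0 in the regions.

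Whether the layer difference itself differed between the regions was tested as an interaction, the layer difference of CA2 minus that of CA1. This term is free of any shift between the runs that is equal in both layers, but not of a shift that differs between the layers. The poly-A controls did differ so. They read 9.39 to 9.66 on CA2 dendrite against 8.53 to 8.72 on CA2 cell body arrays. In CA1 they read 7.51 to 8.43 on dendrite against 10.68 to 11.08 on cell body arrays. The part of such a shift in the interactions was not tested. Of the 9 genes, 2 had a higher and 5 a lower layer difference in CA2, against 14.6% of all genes that passed (5.64% higher, 8.91% lower). The median over the 9 genes was -0.54, and -0.11 over all genes. Marker lists moved in this term too. The layer difference was lower in CA2 for 10 of 10 CA2 neuron markers (median -2.30) and 6 of 10 pyramidal markers (1 higher). It was also lower for 5 of 6 CA3 neuron and 7 of 10 microglia markers. It was higher for 5 of 8 CA1 neuron and 7 of 21 interneuron markers (3 lower). In that order, the counts without the 3 oocyte-RNA arrays were 10, 3, 3, 1, 2 and 2. The part of these cells in the interactions of the calcium genes was not tested.

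Calb1 had the largest interaction of the 9 genes at 2.51 (SE 0.35, 95% interval 1.76 to 3.26, adjusted p = 7.1e-04), from a layer difference of 1.46 in CA2 and -1.05 in CA1, and ranked 8 of 30142 genes in order of rise. Without the 3 oocyte-RNA arrays it was 2.28 (SE 0.30, adjusted p = 0.00477). Necab2 had an interaction of -1.76 (SE 0.13, adjusted p = 5.5e-06), rank 42 in order of fall, and -1.97 without those arrays (adjusted p = 3.4e-04). Both genes thus passed in opposite directions in the regions. The interaction is the difference of those layer differences on the same arrays, so it is not separate evidence.

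Necab1 had an interaction of 1.59 (SE 0.19, adjusted p = 2.6e-04), Ncs1 of -0.75 (SE 0.10, adjusted p = 4.5e-04) and Hpcal4 of -0.70 (SE 0.09, adjusted p = 5.6e-04). The layer difference of Necab1 was thus larger in CA2, and those of Ncs1 and Hpcal4 were larger in CA1. Without the 3 oocyte-RNA arrays these 3 genes still passed (adjusted p = 0.0111, 0.0124 and 0.0271). Hpca (-0.54, SE 0.12, adjusted p = 0.0124) and Necab3 (-0.55, SE 0.14, adjusted p = 0.0257) passed on all arrays, but not without the 3 oocyte-RNA arrays (adjusted p = 0.129 and 0.177, at -0.53 and -0.56). Necab3 also did not pass without CA1 cell body array 2 (adjusted p = 0.0659) or 3 (0.0531) or CA2 cell body array 1 (0.0527) or 2 (0.0664). The interaction of Vsnl1 was -0.17 (95% interval -0.42 to 0.07, adjusted p = 0.293) and that of Hpcal1 -0.27 (95% interval -0.50 to -0.03, adjusted p = 0.108); that of Vsnl1 passed after quantile normalization (-0.36, adjusted p = 0.0304).

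The regions were also compared within each layer, which asks which of these RNAs differ between the regions; each region lies in a run of its own, as given above. In the cell body layer, 2 genes were higher and 2 lower in CA2 than in CA1, against 22.8% of all genes that passed (11.6% higher, 11.2% lower), and the arrays of 6 of the 9 genes did not overlap, against 43.7% of all genes. The median over the 9 genes was 0.10, and 0.02 over all genes. Besides the 10 of 10 CA2 neuron markers, 6 of 6 CA3 neuron markers (median difference 1.13) and 6 of 9 oligodendrocyte markers (0.52) were higher in the CA2 cell body layer, and 6 of 8 CA1 neuron markers were lower (-1.75); the part of such cells in the values below was not tested. Necab2 was 5.67-fold higher in the CA2 cell body layer, at 10.08 ± 0.14 against 7.57 ± 0.12 in CA1 (difference 2.50, SE 0.09, adjusted p = 4.1e-09), rank 29 among the rises. Calb1 was 6.03-fold lower there, at 6.74 ± 0.59 against 9.33 ± 0.02 in CA1 (-2.59, SE 0.24, adjusted p = 1.1e-05), rank 12 among the falls. Necab1 was lower at 6.59 ± 0.15 in CA2 against 8.23 ± 0.24 in CA1 (-1.64, SE 0.13, adjusted p = 3.1e-06), and Ncs1 was higher at 9.05 ± 0.07 in CA2 against 8.44 ± 0.11 in CA1 (0.62, SE 0.07, adjusted p = 4.3e-05). Without the 3 oocyte-RNA arrays the differences of Necab2, Calb1, Necab1 and Ncs1 were 2.57, -2.26, -1.56 and 0.65, and all 4 passed.

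Those 4 genes kept their direction under both rescalings tried, quantile normalization and median centring. Median centring moves all genes alike, here from a median of 0.02 to 0.12, so it could not reverse differences this wide. Neither rescaling separates region from run. The other 5 genes did not pass in the cell body layer. Hpca differed by 0.25 (95% interval 0.07 to 0.44, adjusted p = 0.0525) and passed after quantile normalization (0.33, adjusted p = 0.0281) or median centring (0.35, adjusted p = 0.0104). It also passed among genes above the median level (adjusted p = 0.0338), with array weights (0.013), with a trended variance (0.0388), in a fit of these groups alone (0.0366), and without CA1 dendrite array 1 (0.0233) or 2 (0.04) or CA1 cell body array 3 (0.0383). Necab3 differed by 0.19 (95% interval -0.03 to 0.41), Hpcal1 by 0.10 (-0.07 to 0.27), Vsnl1 by 0.10 (-0.08 to 0.27) and Hpcal4 by -0.02 (-0.17 to 0.12). Necab3 passed with array weights (0.20, adjusted p = 0.0456) and Vsnl1 after quantile normalization (0.24, adjusted p = 0.0205).

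**Figure D3:**
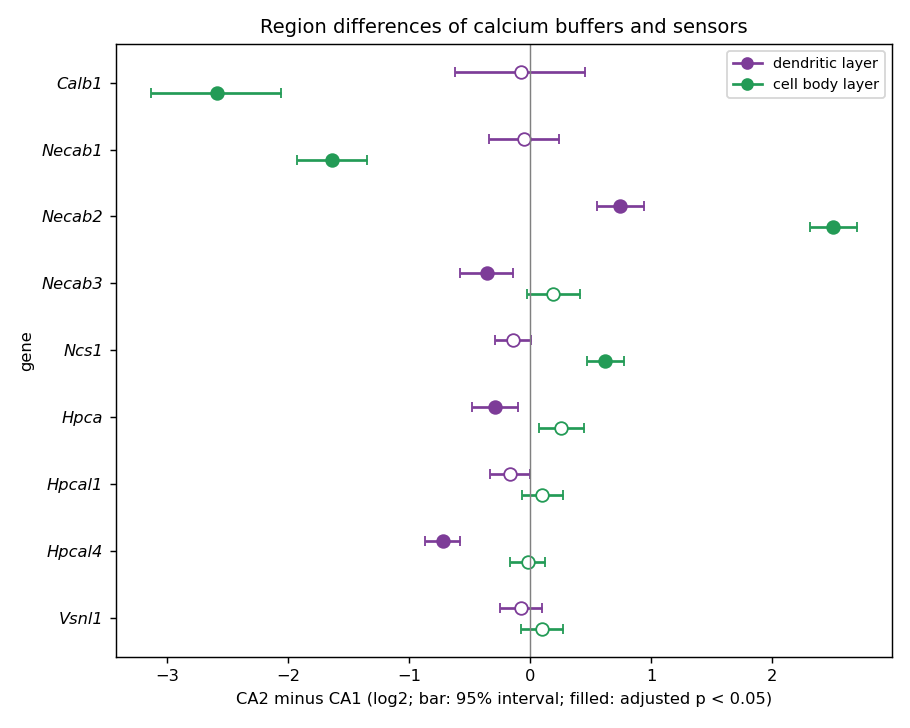
CA2 minus CA1 in log2 units (x axis) for each gene (y axis), dendritic layer above cell body layer; bars are 95% intervals and filled points passed an adjusted p of 0.05. The cell body differences of Calb1 (-2.59) and Necab2 (2.50) are the widest, and the dendritic ones of all 9 genes lie between -0.72 and 0.74.

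In the dendritic layer 1 gene was higher and 3 were lower in CA2, against 33.6% of all genes that passed (12.3% higher, 21.3% lower), and 6 of 9 did not overlap, against 41.0% of all genes. The median over the 9 genes was -0.14, and -0.11 over all genes. Necab2 was higher at 9.40 ± 0.13 in CA2 against 8.66 ± 0.03 in CA1 (0.74, SE 0.09, adjusted p = 1.2e-04; 0.60 without the 3 oocyte-RNA arrays, adjusted p = 0.013). Hpcal4 was lower at 9.12 ± 0.04 in CA2 against 9.85 ± 0.07 in CA1 (-0.72, SE 0.07, adjusted p = 2.1e-05; -0.73 without those arrays, adjusted p = 0.00526). Necab3 (-0.36, adjusted p = 0.0191) and Hpca (-0.29, adjusted p = 0.0232) were lower as well, but neither passed without the 3 oocyte-RNA arrays (adjusted p = 0.192 and 0.269), after quantile normalization (0.063 and 0.0661), after median centring (0.128 and 0.164) or without CA1 dendrite array 1 (0.0617 and 0.0757). Both also missed in a fit of these groups alone (adjusted p = 0.0818 and 0.0736), and Hpca with array weights (0.0683) and without CA2 dendrite array 2 (0.0672) or 3 (0.0563). Calb1 differed by -0.08 (95% interval -0.62 to 0.45) and Necab1 by -0.05 (95% interval -0.34 to 0.24), and the arrays of the regions overlapped for both. Markers of several cell types differed between these layers. Of 10 pyramidal markers, 1 was higher in CA2 and 7 were lower. Of 21 interneuron markers, 7 were higher and 4 lower in CA2. Among the higher ones were Gad1 by 0.59 (adjusted p = 8.2e-04) and Gad2 by 0.51 (adjusted p = 0.00235). Without the 3 oocyte-RNA arrays, which leaves 1 CA2 dendrite array, their differences were 0.53 and 0.61. In CA2, 7 of 9 endothelial and 6 of 9 oligodendrocyte markers were higher, and 8 of 10 microglia, 7 of 10 pyramidal and 6 of 8 CA1 neuron markers were lower. These 5 counts were 4, 5, 4, 5 and 5 without the 3 oocyte-RNA arrays; the part of such cells in the values above was not tested. Ncs1 differed by -0.14 (95% interval -0.29 to 0.01), Hpcal1 by -0.17 (-0.33 to 0.00) and Vsnl1 by -0.08 (-0.25 to 0.10). Ncs1 passed after quantile normalization (-0.22, adjusted p = 0.0333), and Hpcal1 without CA1 dendrite array 2 (-0.23, adjusted p = 0.0497).

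The genes whose values most resembled each of these over the 12 arrays were found by Pearson correlation. The arrays fall into 4 groups, so such a correlation mostly compares the 4 group levels. Ncs1 was most like Elmo1 and Sfxn5 (r = 0.996 each), Hpcal4 like Dlg4 (0.996), the gene of the postsynaptic scaffold PSD-95, and Rapgef1 (0.993), and Hpca like Enc1 (0.996) and the sodium channel gene Scn8a (0.992). Vsnl1 was most like Gda and Tmem178b (0.991 each), Necab2 like the channel gene Trpm3 (0.995) and Erc1 (0.990), and Necab1 like Jcad (0.990) and Klhl5 (0.987). Calb1 was most like Cd34 (0.976) and Anln (0.965), Necab3 like Gramd4 (0.971) and Tnfrsf11a (0.966), and Hpcal1 like Tbx20 (0.920) and Pitx3 (0.913). Among the genes themselves, Hpca and Vsnl1 (r = 0.93), Necab3 and Hpcal4 (0.90), Ncs1 and Necab3 (0.86) and Ncs1 and Hpcal4 (0.84) ran together. Ncs1 and Vsnl1 (-0.91), Necab1 and Hpca (-0.90), Calb1 and Necab2 (-0.89) and Ncs1 and Hpca (-0.86) ran opposite.

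Other calcium-binding EF-hand genes, a list of 32 with 30 measured, moved both ways between the layers. In the CA2 dendritic layer 10 rose, 9 fell and 11 did not pass (median -0.09), beside 35.2% of all genes that passed (median -0.03). In CA1 12 rose, 6 fell and 12 did not pass (median 0.18), beside 49.0% of all genes that passed (median 0.12). Without the 3 oocyte-RNA arrays, 7 rose and 7 fell in CA2. S100b, a calcium-binding protein of astrocytes that is also on the astrocyte list, rose by 1.32 in CA2 (SE 0.08) and by 2.84 in CA1 (SE 0.08), and its interaction was -1.52 (adjusted p = 6.3e-06). Cabp7, a calmodulin-like protein, rose by 1.08 in CA2 and 1.92 in CA1, with an interaction of -0.85 (SE 0.13, adjusted p = 0.00129). Efhd1, an EF-hand protein of mitochondria, rose by 1.75 and 1.40 in CA2 and CA1. Kcnip4, a sensor that is a subunit of A-type potassium channels, fell by 1.38 in CA2 and 1.75 in CA1.

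Scgn, the buffer secretagogin, stood above background in the CA2 cell body layer. It read 4.51, 4.67 and 4.57 on the CA2 dendrite arrays, against 6.40, 6.32 and 6.53 on the CA2 cell body arrays. It read 4.48, 4.73 and 4.34 on the CA1 dendrite arrays, against 4.31, 4.33 and 4.30 on the CA1 cell body arrays. The control probes for background averaged 4.38 to 4.80, so the CA2 dendrite group and both CA1 groups lie at that level and the size of a difference against them was not measurable. The CA2 cell body layer was higher than the CA2 dendritic layer (adjusted p = 1.6e-08) and than the CA1 cell body layer (adjusted p = 2.0e-08); no difference is given between the layers of CA1, which are both at background. Of the 30 listed genes, 8 were higher and 1 lower in the CA2 than in the CA1 cell body layer, beside 22.8% of all genes that passed. In the CA2 dendritic layer 6 were higher and 6 lower than in CA1, beside 33.6% of all genes that passed. The count of the list in the cell body layer was 14 genes after quantile normalization and 15 after median centring or with array weights, in place of 9. Among those higher in CA2, Cetn2, a centrin, and Sri (sorcin) differed by 0.96 and 0.74 in the cell body layer. Pvalb, the buffer of fast-spiking interneurons, was 0.80 higher in the CA2 than in the CA1 dendritic layer (SE 0.12, adjusted p = 5.7e-04). It was also 0.37 higher in the CA2 cell body layer (adjusted p = 0.0487). Calb2 did not pass in either layer (-0.23 in the cell body and -0.21 in the dendritic layer). Its cell body values, 4.87 to 4.91 in CA2 and 5.04 to 5.19 in CA1, lie just above background, so the size of that difference is uncertain.

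**Figure D4:**
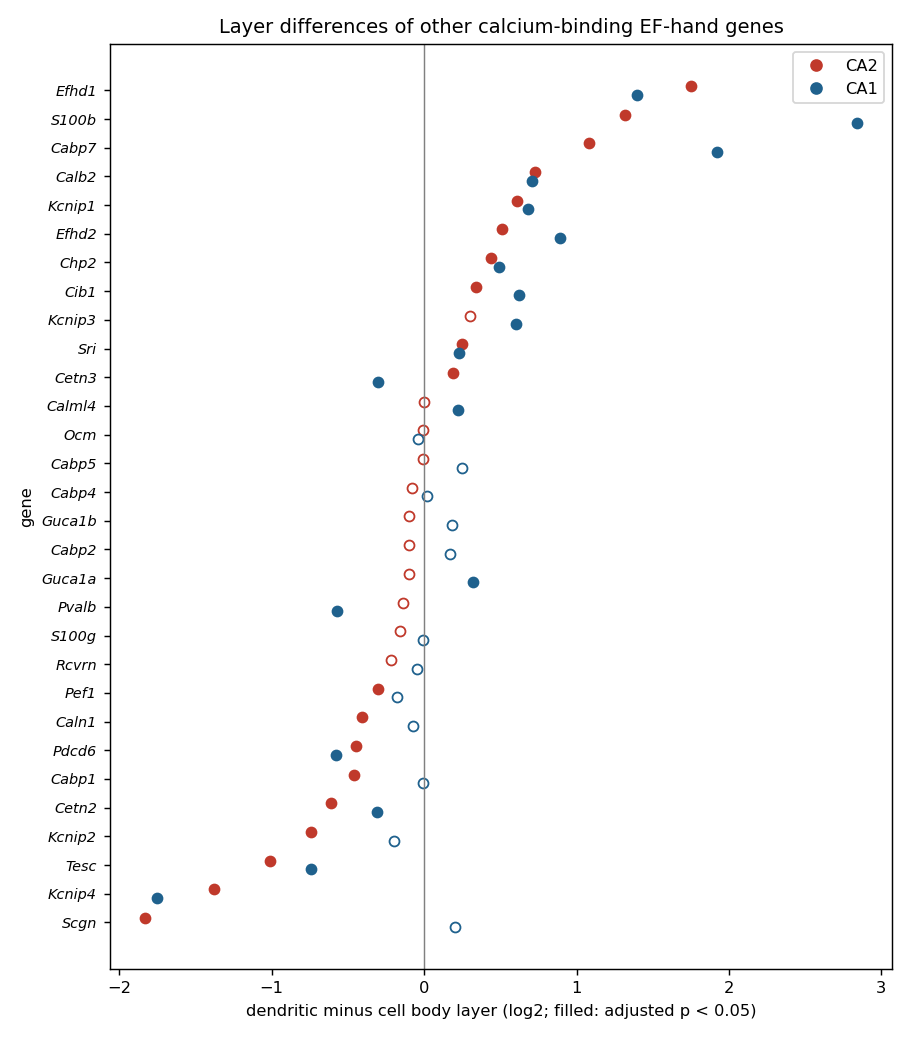
Dendritic minus cell body layer in log2 units (x axis) for 30 other calcium-binding EF-hand genes (y axis, in order of the CA2 difference), CA2 above CA1; filled points passed an adjusted p of 0.05. Kcnip4 fell in both (-1.38 in CA2, -1.75 in CA1), the points of Scgn are set against groups at background and have no measurable size, and S100b (1.32 in CA2, 2.84 in CA1) has the largest rise in CA1.

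The RNAs of proteins known to bind these sensors and buffers were more often lower than higher in the dendritic layer. Of 14 measured of 18 listed entries, 2 rose and 11 fell in CA2 (median -0.64) and 2 rose and 8 fell in CA1 (median -0.40), beside 18.6% and 18.9% of all genes that fell in CA2 and CA1; without the 3 oocyte-RNA arrays 2 rose and 9 fell in CA2. Grm5, the glutamate receptor bound by Necab2, fell by 1.52 in CA2 and 1.46 in CA1 (SE 0.08 each). Trpc5, a channel bound by Ncs1, fell by 1.66 and 1.20, and Apba2, the adaptor bound by Necab3, by 0.97 and 0.90. Impa1, the inositol phosphatase bound by calbindin, fell by 0.88 in CA2 (SE 0.08, adjusted p = 2.8e-06). In CA1 it averaged 7.03 in the dendritic against 7.62 in the cell body layer. Map3k10, a kinase bound by hippocalcin, rose in CA1 by 1.24 (SE 0.07, adjusted p = 6.1e-08). In CA2 it was higher in the dendritic layer as well, at 8.85 against 8.22. Its interaction was -0.61 (adjusted p = 0.00277). Chrna4, the nicotinic receptor subunit bound by the visinin-like protein of Vsnl1, differed by -0.90 between the layers in CA2 and by 0.05 in CA1, an interaction of -0.95 (SE 0.17, adjusted p = 0.00318). Between the dendritic layers 1 partner was higher and 7 lower in CA2, but 2 passed in all without the 3 oocyte-RNA arrays and 4 after median centring.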

How the data were processed

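Per the labels' protocols, tissue was captured by laser microdissection from 8 µm sections, about 20 caps a piece with 5 sections a cap, and 5 to 7 ng of RNA was amplified for arrays. The deposited values are log2 expression made by the authors with RMA, per the submitters' processing notes. RMA corrects background, equalizes the arrays' distributions and summarizes probes, so a change in total RNA is not seen; the labels do not state its software version or which arrays were normalized together. Array medians over 72688 features lay between 5.68 and 5.88.

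Of the features, 30604 had 1 symbol in the platform annotation and 2146 had several; the other 39938 were unnamed here. Of those with 1 symbol, 22818 were matched to RefSeq by Entrez identifier, which changed 827 symbols. For 355 genes with over 1 feature, the one with the highest mean was kept, leaving 30142 genes.

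All genes were fitted together by lmFit and eBayes (limma 3.58.1 under R 4.3.3), with 12 arrays and 4 group means, two-sided, with Benjamini-Hochberg adjustment over all genes and a threshold of 0.05, over 5 comparisons. The fit was tested on simulated data first. Nothing in the labels says that equal array numbers share a mouse, and arrays with equal numbers did not deviate together (1 of 18 pairs correlated above 0.1, range -0.346 to 0.132), so no block was used; pieces of 1 mouse are treated as independent. Samples were grouped by title.

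The genes, lists and tests were chosen with earlier results of these data known. Named genes are the 9 measured genes; up to 4 genes with the smallest p of each list; 10 check genes; and, for each gene, the 2 most alike over 12 arrays, without predicted genes, small RNAs and chemosensory receptors. Members of the lists outside this rule (Calb2), and the layer and cell body differences of Pvalb, were added after their values were seen. Alternatives were a replicate block, rescaling, a filter on dim genes, averaged features, array weights, trended variance, fits of the compared groups alone, each array left out, and the 3 arrays with oocyte transcripts left out.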

Additional observations from a re-analysis of the deposited data

Results flagged for a closer look

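The layer difference (dendritic minus cell body) differed between CA2 and CA1 by the interaction test for 7 of the 9 genes, against 14.6% of all genes. It was higher in CA2 for Calb1 (2.51) and Necab1 (1.59), and lower in CA2 for Necab2 (-1.76), Ncs1 (-0.75), Hpcal4 (-0.70), Necab3 (-0.55) and Hpca (-0.54). Necab3 and Hpca did not pass without the 3 oocyte-RNA arrays (adjusted p = 0.177 and 0.129). Necab3 also missed without CA1 cell body array 2 (0.0659) or 3 (0.0531) or CA2 cell body array 1 (0.0527) or 2 (0.0664). Groups of 3 arrays are too small for a test of single outlying arrays.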

How the results depend on the processing

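The 9 genes in 5 comparisons were recomputed under 21 alternatives, which gave 936 values. Of these, 882 kept their direction and side of the threshold, 19 lost and 20 gained a call, and 15 changed sign. None of the 189 for the layers of CA1 changed, and no sign change was of a gene that passed. Many of the values could not change direction. Averaged features (each gene has 1), the filter on dim genes, a replicate block and trended variance leave the difference itself as it was. So do fits of the compared groups alone and leaving out an array of a group outside the comparison. Under these, only the call could move. The sign changes without leaving out an array were of Hpcal4 between the cell body layers (0.05 after quantile normalization, 0.08 after median centring), and, between the dendritic layers, of Calb1 (0.03 after median centring, 0.02 without the 3 oocyte-RNA arrays), Necab1 (0.06 and 0.01) and Vsnl1 (0.03 and 0.02). With single arrays left out these ranged from -0.07 to 0.01 for Hpcal4, -0.26 to 0.12 for Calb1 and -0.15 to 0.06 for Necab1. Between the dendritic layers, 2 of the 9 genes in place of 4 passed after median centring, 2 in a fit of these groups alone and 2 without the 3 oocyte-RNA arrays, and 2 (without CA1 dendrite array 1) to 5 with 1 array left out. Without the 3 oocyte-RNA arrays, fewer genes passed over the whole table, where fewer arrays were tested: 7068 in place of 10625 for the layers of CA2, 1303 in place of 4387 for the interaction and 3083 in place of 10138 for the dendritic layers. The last was 6267 with array weights and 4771 on these groups alone, and the interaction count ranged from 2621 (without CA1 cell body array 2) to 6991 (without CA1 dendrite array 3) with 1 array left out (2648 without CA2 cell body array 2); the cause was not tested. Of called genes, 50.9% were higher in the CA2 cell body layer, and 71.3% after quantile normalization or 75.2% after median centring; in the dendritic layer 36.5%, 55.3% and 69.2%. Median centring moved the median of all genes by about 0.1, to 0.12 between the cell body layers and to 0.00 between the dendritic layers. With a replicate block the same numbers of the 9 genes passed in each comparison (7 in CA2, 8 in CA1, 7 for the interaction, 4 and 4 between regions), and the interaction count over all genes was 3504; 4 of 12 arrays were most like an array of their own number. Among the lists, the partners called between the dendritic layers numbered 2 to 5 in place of 8 under several alternatives, and the other EF-hand genes called for the interaction numbered 10 in place of 6 after quantile normalization.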

Other observations

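Necab1 and Calb1, the 2 genes of the group that were lower in the CA2 than in the CA1 cell body layer, lie near each other on mouse chromosome 4 in the RefSeq annotation. This was looked at after their values were seen. Between the cell body layers 22.8% of all genes passed. Of 4 measured genes that start between Necab1 and Calb1, 2 were higher, 1 lower and 1 not called in the CA2 cell body layer. Their differences ran from -0.56 to 0.45. The only one that is not a predicted gene, Tmem64, was higher there by 0.45 (SE 0.14, adjusted p = 0.0326).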
